A study of Homo sapiens with 8 samples.

Results

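The genes described here are 34 genes of cholesterol and fatty acid synthesis. They were taken by name from the 20296 genes that the probes of the array could be matched to. No measured value entered the selection rule, but the list was chosen with earlier results of these data known. The 34 are 7 enzymes of the mevalonate pathway, 11 enzymes of the sterol pathway, 5 sterol sensors and regulators, 3 sterol transport proteins and 8 genes of fatty acid and lipid synthesis. All 34 were well above background on at least 1 of the 8 arrays, as were 15811 genes in all, and 31 were so on every array. The exceptions were ABCA1 (4 arrays), ABCG1 (7 arrays) and SC5D (7 arrays).

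RNA of MCF10A, a human breast epithelial line that forms no tumours, was hybridised in a single colour to Agilent SurePrint G3 arrays. Cells labelled p53+/+ and p53-/- were harvested untreated, at the time when the others were treated (0 h), or at 12, 24 and 48 h after a 2 h exposure to 0.5 µg/ml of doxorubicin (adriamycin, ADR), a DNA-damaging drug, which had been given 24 h after plating. The study's methods give a higher dose than the labels. The labels do not say how p53 was lost or whether the p53-/- cells are 1 clone, and no untreated cells were harvested at the later times, so time in culture and time after ADR cannot be told apart. Each genotype and time has 1 array, so no difference below has a replicate check and none was tested. A gene is called higher or lower here when it differs at least 2-fold, that is, by 1 on the log2 scale. Counts of members are given beside the percentage of the 15811 genes that met the same rule. Counts under other scalings, filters and fold rules, or with a treated time left out, have no such percentage. Levels are log2 signals relative to the 75th percentile of the same array, and 1 probe is never set against another. The technical SD of a member's difference, from 999 probes printed in 10 spots, had a median of 0.06 and ran from 0.03 to 0.33 on the log2 scale, and it covers spots within an array only.

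Cholesterol is built from acetyl-CoA through mevalonate, the isoprenoids and squalene, and fatty acids are built from the same precursor by carboxylation, chain synthesis, elongation and desaturation. Genes of both routes are switched on by the transcription factors SREBP-1 and SREBP-2, which are made as membrane precursors. SCAP carries the precursors out of the endoplasmic reticulum for cleavage when sterols are scarce, and the INSIG proteins hold them back when sterols are plentiful. Liver X receptors (LXR), which sense oxysterols, switch on the cholesterol exporters ABCA1 and ABCG1 and the gene of SREBP-1.

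The treated p53+/+ and p53-/- arrays differed in a few members by much more than in the rest. INSIG1 was 3.88-, 8.56- and 3.91-fold lower in p53+/+ than in p53-/- at 12, 24 and 48 h. TM7SF2, a sterol C14-reductase, was 6.97-, 10.5- and 4.97-fold higher, and ABCG1 was 3.14-, 6.62- and 4.26-fold higher. Among the 18 mevalonate and sterol enzymes, 3 were at least 2-fold lower and 2 at least 2-fold higher in p53+/+ than in p53-/- at 24 h, against 14.1% and 13% of all genes. Relative to the array labelled p53+/+ 0 h, 8 of the 18 were at least 2-fold lower at 24 h in p53+/+ (14.4% of all genes), and relative to the p53-/- 0 h array 6 were (14.1% of all genes). In p53-/- 0 of the 18 were (5.6% of all genes).

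The promoters of INSIG1, TM7SF2 and SCD, which differed most between the treated genotypes among the sensors, the sterol enzymes and, on the lower side, the fatty acid genes, are shown with that of SREBF2, the one member promoter that held the searched core of the sterol regulatory element. Each line gives the 250 bases before the gene's start, 5' to 3' on the gene's strand, from RefSeq on GRCh38.p14, and capitals mark CCAAT (the NF-Y motif), CACGTG (an E-box) and TCACNCCAC (the sterol regulatory element core) on either strand, none of which overlap each other here.
INSIG1, chr7:155297628-155297877, strand +: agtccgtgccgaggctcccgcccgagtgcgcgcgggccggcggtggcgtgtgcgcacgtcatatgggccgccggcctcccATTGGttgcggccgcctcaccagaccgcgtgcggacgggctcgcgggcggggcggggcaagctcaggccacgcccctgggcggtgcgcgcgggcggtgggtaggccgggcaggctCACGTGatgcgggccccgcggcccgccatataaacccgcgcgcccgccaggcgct
TM7SF2, chr11:65111622-65111871, strand +: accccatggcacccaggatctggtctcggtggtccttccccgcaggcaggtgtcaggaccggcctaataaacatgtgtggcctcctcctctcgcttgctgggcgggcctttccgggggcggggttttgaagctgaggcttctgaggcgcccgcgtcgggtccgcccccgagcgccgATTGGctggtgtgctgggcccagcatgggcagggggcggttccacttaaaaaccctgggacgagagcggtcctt
SCD, chr10:100346983-100347232, strand +: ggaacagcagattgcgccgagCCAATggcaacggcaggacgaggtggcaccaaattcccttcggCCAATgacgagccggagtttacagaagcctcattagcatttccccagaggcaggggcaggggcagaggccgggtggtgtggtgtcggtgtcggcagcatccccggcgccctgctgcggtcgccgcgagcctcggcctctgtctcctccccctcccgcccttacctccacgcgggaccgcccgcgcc
SREBF2, chr22:41832855-41833104, strand +: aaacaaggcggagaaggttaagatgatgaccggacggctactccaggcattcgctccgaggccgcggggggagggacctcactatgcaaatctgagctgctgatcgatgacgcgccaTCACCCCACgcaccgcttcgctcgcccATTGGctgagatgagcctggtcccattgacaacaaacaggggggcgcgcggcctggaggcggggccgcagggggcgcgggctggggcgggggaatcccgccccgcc
In INSIG1 the CCAAT match starts 170 bases before the start of the gene, and a CACGTG lies between it and the start. Among the windows of the table, which run from 250 bases before to 50 bases after a start, 41 belonged to 29 of the 34 members (ACAT2, FDFT1, SQLE, ABCG1 and FASN had none). CCAAT was found in 24 member windows (58.5%) and in 34.6% of all 35116 windows, and GGGCGG, the Sp1 motif, which is not marked above, in 36 (87.8%) and 45.0%. CACGTG was found in 6 member windows (14.6%) and in 7.26% of all, and TCACNCCAC in 1 (2.44%) and 1.13%. Both strands were searched, and a match is a description of the letters only.

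Some facts of the arrays touch every value. CDKN1A, a p53 target that halts the cell cycle, stood at a log2 level of -1.13 on the array labelled p53+/+ 0 h and between 2.55 and 2.70 on the treated p53+/+ arrays, against -2.95 at 0 h and -0.94 to -0.47 on the treated p53-/- arrays. MDM2, which marks p53 for degradation and is itself a p53 target, was at -1.65 at 0 h and 1.29 to 1.76 after ADR in p53+/+ and between -2.03 and -1.31 on the p53-/- arrays. Of 267 genes at least 4-fold higher on each treated p53+/+ array than on each p53-/- array, 266 were closer to p53-/- when read on the array labelled p53+/+ 0 h, as were 122 of 125 genes at least 4-fold lower. Whether this is the state of untreated p53+/+ cells or a property of that array cannot be told apart, so changes from it are given with the value from the p53-/- 0 h array where that ends a 2-fold call. On the p53+/+ 48 h array 0 of 10 spike-in probes were above background, against 6 of 10 on the other arrays. All p53+/+ arrays lay in one column of the slide and all p53-/- arrays in the other, so slide position and genotype cannot be told apart. The summed linear signal, in units of the 75th percentile, of 10 basal mammary epithelial markers was 755 to 1017 on the treated p53+/+ arrays and 332 to 366 on the treated p53-/- arrays, with 403 and 259 at 0 h. Of these 10, 6 were at least 2-fold higher in p53+/+ at all 3 treated times and 0 lower. Relative to the p53-/- 0 h array, TP63 was at -1.18, -1.29 and 0.80 in p53+/+. The sum of 4 fibroblast markers was 4.33 to 5.23 against 52.99 to 67.6, with 54.6 and 59.4 at 0 h, and COL3A1 was above background on no array. The 2 endothelial markers, PECAM1 and CDH5, summed to 0.11 to 0.144 against 0.306 to 0.424, with 0.329 and 0.322 at 0 h. Only PECAM1 was at least 2-fold lower in p53+/+ at all 3 treated times. CDH5 on the treated p53+/+ arrays was at 0.41, 0.32 and 0.69 relative to the p53-/- 0 h array. The adipocyte markers ADIPOQ, PLIN1 and LEP were above background on no array. The part of these differences in the results below was not tested.

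In the mevalonate pathway, which turns acetyl-CoA into farnesyl diphosphate, 6 of 7 enzymes were below p53-/- in p53+/+ at 24 h, as were 52.1% of all genes, and 1 of them, MVD, reached 2-fold, near the share of all genes. HMGCS1 joins acetoacetyl-CoA with acetyl-CoA. Its log2 level was 0.86, 0.73, -0.89 and -0.04 at 0, 12, 24 and 48 h under the p53+/+ label, and it was -0.47, 0.74, -0.67 and -0.15 in p53-/-. The 2 genotypes thus lay close together after ADR, with log2 differences of -0.01, -0.22 and 0.11, and were furthest apart at 0 h, where p53+/+ was higher by 1.33. MVD, which makes isopentenyl diphosphate, went from 0.22 through 0.06 and -1.46 to -0.65 in p53+/+ and from -0.28 through 0.66 and -0.40 to 0.07 in p53-/-, a treated difference of -0.60, -1.06 and -0.73. The MVD levels of the treated arrays overlapped between genotypes, since p53+/+ at 12 h lay above p53-/- at 24 h.

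MVK, which phosphorylates mevalonate, stood at a log2 change of -1.11 from 0 h in p53+/+ at 24 h and of -0.98 in p53-/-. IDI1, which isomerises isopentenyl diphosphate, was at -0.02, -0.98 and -1.05 relative to 0 h in p53+/+ and at 1.01, 0.35 and 0.59 in p53-/-. With the p53-/- 0 h array as baseline the p53+/+ values were 0.86, -0.10 and -0.17, so its 2-fold call at 48 h rests on the array labelled p53+/+ 0 h. ACAT2, which makes acetoacetyl-CoA, and FDPS, which makes farnesyl diphosphate, stayed within 2-fold of 0 h on all treated arrays. PMVK, which adds the second phosphate to mevalonate, went the other way. Its log2 level was 2.51, 3.16, 3.21 and 3.59 in p53+/+ and 2.72, 2.43, 2.54 and 2.88 in p53-/-, so that all 3 treated p53+/+ arrays lay above the treated p53-/- arrays, by 0.73, 0.67 and 0.70. The 48 h difference turned to -0.15 without scaling between arrays.

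TM7SF2 was the member furthest above its p53-/- level on the treated p53+/+ arrays. Together with LBR it reduces the C14 double bond of the sterol ring. It was at a log2 level of -4.07, -0.50, 0.43 and -0.30 in cells labelled p53+/+, whereas p53-/- cells gave -4.06, -3.30, -2.97 and -2.62. The 0 h arrays were thus level, every treated p53+/+ array lay above every p53-/- array, and p53-/- was past 2-fold above its own 0 h array at 24 and 48 h. The log2 change from 0 h was 3.57, 4.50 and 3.77 in p53+/+ and 0.76, 1.09 and 1.45 in p53-/-, and from the p53-/- 0 h array the p53+/+ changes were 3.56, 4.49 and 3.76. The genotype difference after ADR was 2.80, 3.40 and 2.31, with a technical SD of 0.05, and 2.36, 2.92 and 1.46 without scaling.

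HSD17B7, the 3-ketosteroid reductase of the C4 demethylation, had log2 levels of -0.71, 1.03, 0.90 and -0.31 in p53+/+ and -0.37, -0.48, -0.85 and -1.04 in p53-/-. The treated p53+/+ arrays all lay above the treated p53-/- arrays, by 1.51, 1.75 and 0.73, but p53+/+ at 48 h was within 2-fold of 0 h and its difference from p53-/- turned to -0.12 without scaling. Its 3 probes moved alike, with 24 h differences of 1.75, 1.93 and 1.64. HSD17B7 has a closely similar pseudogene, and whether the probes tell them apart was not checked.

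Of the 11 sterol enzymes, 9 were below 0 h at 24 h in p53+/+, as were 52.1% of all genes, and TM7SF2 and HSD17B7 were above it. Of the 11, 5 were past 2-fold lower, against 14.4% of all genes, and MSMO1 was not from the p53-/- 0 h array. SQLE, which makes squalene epoxide and controls flux into sterols, was at a log2 level of 3.25, 2.46, 1.20 and 2.37 in p53+/+ and 2.86, 3.22, 2.42 and 2.65 in p53-/-. Its lowest array was p53+/+ 24 h, 2.34-fold below p53-/- at that time, and the treated arrays of the genotypes overlapped in that p53+/+ at 12 h lay just above p53-/- at 24 h, an overlap that was gone after quantile normalization, median scaling and without scaling. DHCR7, which makes cholesterol from 7-dehydrocholesterol, was at 3.91, 3.67, 2.04 and 3.06 in p53+/+ and 3.72, 4.29, 3.04 and 3.47 in p53-/-. Again p53+/+ at 24 h was lowest, and its difference of -1.004 from p53-/- was just past the 2-fold rule. LSS, which closes the sterol rings, CYP51A1, the lanosterol demethylase, and MSMO1, the C4 methyl oxidase, were at -1.39, -1.58 and -1.28 relative to 0 h in p53+/+ at 24 h, and at -0.74, -0.41 and 0.01 in p53-/-. Against the p53-/- 0 h array the p53+/+ values were -1.62, -1.20 and -0.40. Just outside the rule was NSDHL, the C4 decarboxylase, at -0.99. A second, dimmer LSS probe stood higher by 1.16 and 1.32 than at 0 h in p53-/- at 24 and 48 h, against -0.74 and -0.94 for the probe used. In p53+/+ at 24 h the second probe was at -0.54, so the 2-fold call of LSS rests on the probe used. The LSS genotype difference at 48 h was -1.54 on the second probe and 0.20 on the probe used. FDFT1, which makes squalene, EBP, the sterol isomerase, and SC5D, the C5 desaturase, were between -0.84 and -0.44 at 24 h in p53+/+, where SC5D was not well above background.

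Across the 18 mevalonate and sterol enzymes the median log2 change from 0 h at 24 h was -0.98 in p53+/+, where 15 were below 0, and -0.19 in p53-/-, where 12 were, against 52.1% and 50.6% of all genes below 0. From the p53-/- 0 h array the p53+/+ median was -0.47, also with 15 below 0. Under quantile, median and no scaling the p53+/+ count was again 15, with medians of -0.91, -1.11 and -1.29 from its own 0 h array. Over the whole list, 10 members were at least 2-fold lower than 0 h at 24 h in p53+/+ (HMGCS1, MVK, MVD, SQLE, LSS, CYP51A1, MSMO1, DHCR7, INSIG1 and SCD), 29.4% of the members against 14.4% of all genes. From the p53-/- 0 h array the count was 8 (23.5% against 14.1% of all genes), without HMGCS1 and MSMO1, which stood at -0.42 and -0.40. At 12 h 1 member was 2-fold lower (10.8% of all genes) and at 48 h 3 were, IDI1, EBP and INSIG1 (12.3% of all genes). The 48 h count was 8 after median scaling and 14 without scaling, with no share of all genes computed for either. Without scaling the median change of all genes in p53+/+ at 48 h was itself -0.46. From the p53-/- 0 h array the 48 h count was 1, INSIG1 (12.3% of all genes), and EBP stood at -0.88. In p53-/- 0 members were 2-fold lower at 24 h, against 5.6% of all genes. Steps between treated arrays use no 0 h array. Over all 34 members the median log2 step was -0.72 from 12 to 24 h and 0.30 from 24 to 48 h in p53+/+, against -0.04 and 0.16 over all genes, and it was -0.39 and 0.08 in p53-/-, against 0.00 and 0.04. The 10 members above were chosen for their low p53+/+ value at 24 h, which favours a low step into it and a high step out of it, so their p53+/+ steps are a description. Their log2 step from 12 to 24 h had a median of -1.56 and was below 0 in all 10, and the step from 24 to 48 h had a median of 0.91, from 0.50 to 1.83, and was above 0 in all 10. In p53-/- the median step from 12 to 24 h was -0.92, also below 0 in all 10, and from 24 to 48 h it was 0.17. The signs of both p53+/+ steps and of the p53-/- step from 12 to 24 h held in all 10 under the 4 scalings. Of the 34 members, 16 had their lowest p53+/+ array at 24 h, against 28.2% of all genes, and 13 had their lowest p53-/- array at 24 h, against 17.9% of all genes. At 24 h MVD, SQLE, DHCR7, INSIG1 and SCD were at least 2-fold lower in p53+/+ than in p53-/-, 5 of 34 members beside 14.1% of all genes, so this count was near that of the array.

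**Figure D1:**
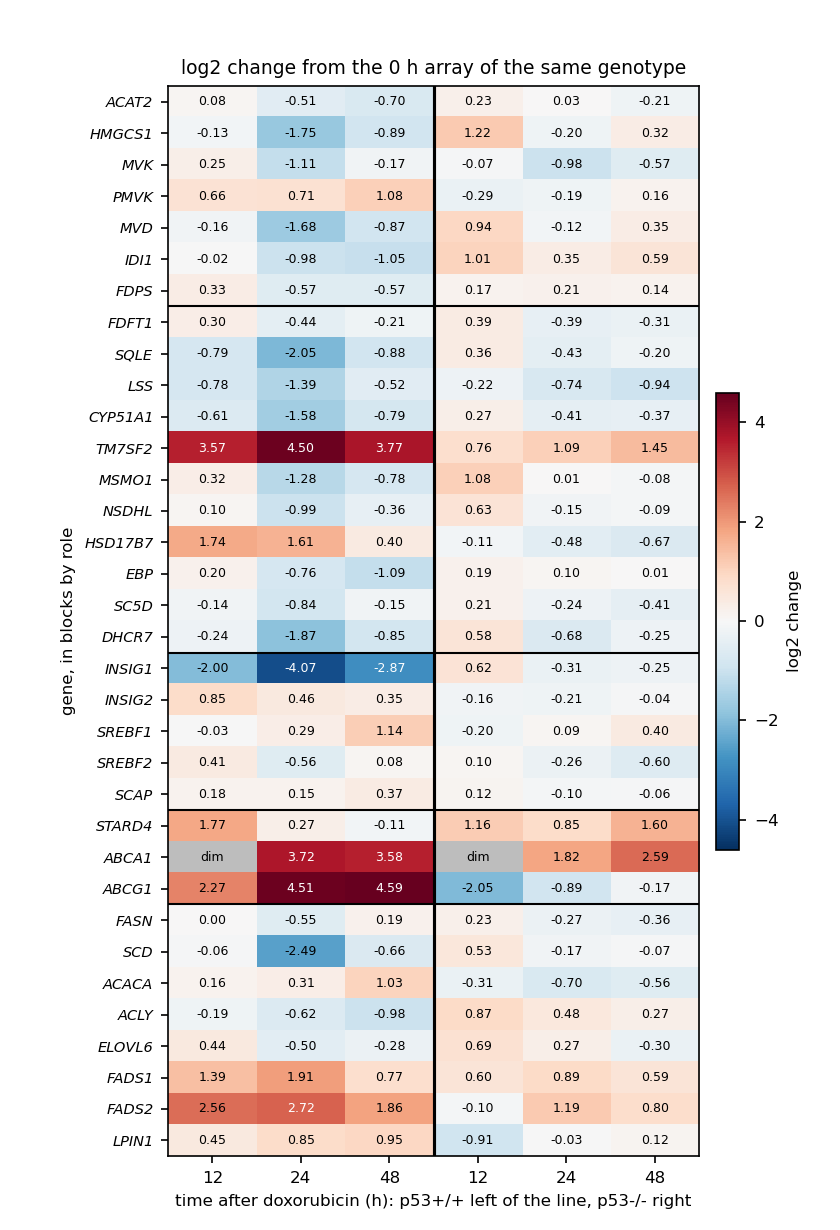
Log2 change of each member (rows, in blocks by role) from the 0 h array of its genotype at 12, 24 and 48 h after doxorubicin, p53+/+ on the left and p53-/- on the right, 1 array each; grey cells marked dim are ABCA1 at 12 h, where neither array was well above background, and the other ABCA1 cells and the p53+/+ cells of ABCG1 rest on a 0 h array that was not. The 24 h column of p53+/+ holds 10 members at -1 or below and TM7SF2 at 4.50, and the 24 h column of p53-/- holds none at -1 or below.

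**Figure D2:**
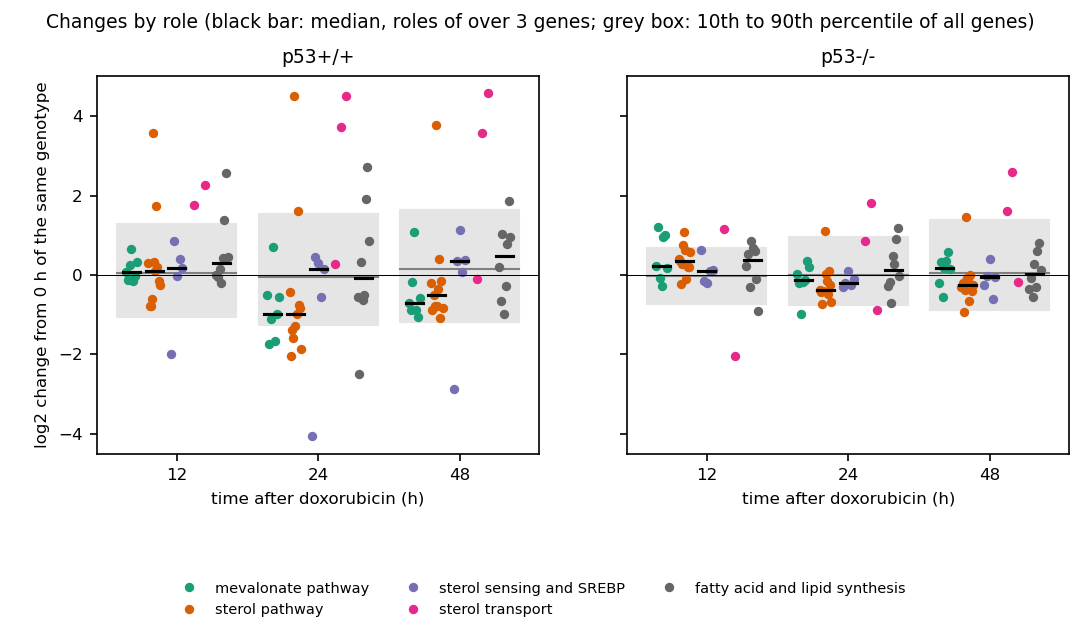
The same log2 changes by role, 1 point per gene, against time after doxorubicin in each genotype; black bars are role medians, and grey boxes with a grey line give the 10th to 90th percentile and the median of all 15811 genes. At 24 h the medians of both enzyme blocks sit near -1 in p53+/+ and at -0.12 and -0.39 in p53-/-.

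Among the sensors and regulators, INSIG1 stood apart from the other 4. INSIG1, which retains SCAP in the endoplasmic reticulum and is itself an SREBP target, was at a log2 level of 2.07, 0.07, -1.998 and -0.80 in cells labelled p53+/+, whereas p53-/- cells gave 1.41, 2.03, 1.10 and 1.17. All treated p53+/+ arrays lay below all p53-/- arrays, and p53+/+ at 24 h was lowest. The genotype difference was -1.96, -3.10 and -1.97 at 12, 24 and 48 h, with technical SDs of 0.06 to 0.07, and the change from 0 h was -1.997, -4.07 and -2.87 in p53+/+ and 0.62, -0.31 and -0.25 in p53-/-. From the p53-/- 0 h array the p53+/+ changes were -1.34, -3.41 and -2.21. INSIG1 was the 1 member whose treated p53+/+ arrays were all below the treated p53-/- arrays (20.1% of all genes were). That count became 2, with SQLE, after quantile normalization and after median scaling and 13 without scaling. The shares of all genes under these scalings were not computed. Without scaling the median genotype difference of all genes was itself -0.37, -0.52 and -0.76 at 12, 24 and 48 h. INSIG1 was also the 1 member at least 2-fold lower at all 3 times (5.95% of all genes), and the 1 member at least 2-fold below 0 h in p53+/+ at all 3 times (6.41% of all genes).

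INSIG2, the second INSIG protein, had log2 levels of -1.72, -0.87, -1.26 and -1.37 in p53+/+ and -1.27, -1.42, -1.48 and -1.30 in p53-/-, and its largest change, 0.85 at 12 h in p53+/+, was 0.18 with its other probe. SREBF1, the gene of SREBP-1, was at 2.48, 2.45, 2.77 and 3.62 in p53+/+ and at 2.62, 2.42, 2.71 and 3.02 in p53-/-. The genotypes lay together until 24 h, and at 48 h p53+/+ was 1.14 above 0 h and 0.60 above p53-/-. A second SREBF1 probe was 0.33 above 0 h there, and without scaling the change was 0.52 and the genotype difference -0.25. SREBF2, the gene of SREBP-2, was at 0.80, 1.21, 0.25 and 0.88 in p53+/+ and 0.84, 0.94, 0.59 and 0.25 in p53-/-, so that the genotypes reached their lowest level at 24 and 48 h, respectively, without passing 2-fold from 0 h. SCAP, the escort of the SREBP precursors, was at 2.03, 2.20, 2.18 and 2.39 in p53+/+ and 2.13, 2.25, 2.04 and 2.07 in p53-/-, all within 0.37 of 0 h on the log2 scale.

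**Figure D3:**
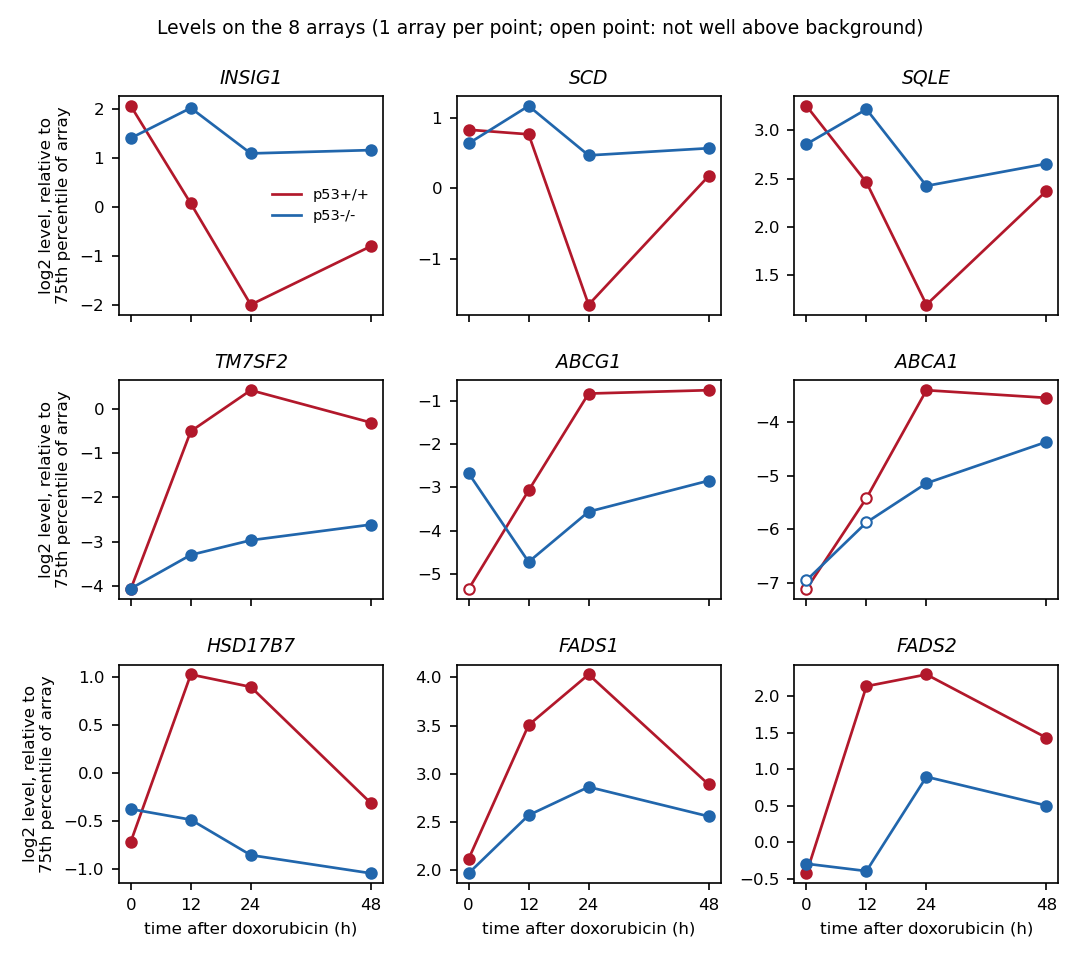
Log2 level relative to the 75th percentile of the array (vertical axis, its range set per gene) against time after doxorubicin for 9 members, 1 array per point, p53+/+ in red and p53-/- in blue, with open points for arrays on which the gene was not well above background. INSIG1, SCD and SQLE have their lowest point at p53+/+ 24 h, and TM7SF2, HSD17B7, FADS1 and FADS2 are higher in p53+/+ at every treated time, though HSD17B7 and FADS1 are not at 48 h without scaling between arrays.

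Both cholesterol exporters were higher in p53+/+ than in p53-/- at 24 h. ABCG1, which passes cholesterol to high-density lipoprotein, was at a log2 level of -5.35 on the array labelled p53+/+ 0 h, where it was not well above background, and at -3.07, -0.84 and -0.76 after ADR. On the p53-/- arrays it was at -2.68, -4.72, -3.56 and -2.85. The genotypes ran in opposite directions from 0 h, and p53+/+ at 12 h still lay below p53-/- at 48 h. At matched times p53+/+ was higher by 1.65, 2.73 and 2.09 on the log2 scale, and by 1.21, 2.25 and 1.23 without scaling. Relative to 0 h it was at least 4.22-, 19.9- and 21.0-fold higher in p53+/+ at 12, 24 and 48 h, and its log2 change in p53-/- was -2.05, -0.89 and -0.17. These changes lean on the 0 h arrays, which themselves were at least 5.56-fold apart, and from the p53-/- 0 h array the p53+/+ changes were -0.40, 1.84 and 1.92, the first with its sign turned.

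ABCA1, which passes cholesterol to lipid-poor apolipoprotein, was not well above background at 0 and 12 h in either genotype. Its log2 level was -7.12, -5.42, -3.40 and -3.54 in p53+/+ and -6.96, -5.87, -5.14 and -4.36 in p53-/-, so p53+/+ was higher at 24 h by 1.74 and at 48 h by 0.83. The 48 h difference was -0.03 without scaling. Relative to 0 h it was at least 3.38- and 3.06-fold higher at 24 and 48 h in p53+/+, and at least 1.06- and 1.81-fold higher in p53-/-. A second ABCA1 probe was above background on no array. STARD4, which carries cholesterol through the cytosol, had log2 levels of -0.94, 0.83, -0.68 and -1.06 in p53+/+ and -1.78, -0.62, -0.93 and -0.18 in p53-/-. It was thus highest at 12 h in p53+/+ and at 48 h in p53-/-, and the genotype difference went from 1.44 at 12 h to -0.88 at 48 h.

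In fatty acid synthesis the desaturases parted. SCD, which puts the first double bond into saturated fatty acids, was at a log2 level of 0.83, 0.77, -1.66 and 0.17 in p53+/+ and 0.64, 1.17, 0.47 and 0.57 in p53-/-. The p53+/+ 24 h array alone was far below the others, 4.36-fold under p53-/- at that time, with differences of -0.40 at both 12 and 48 h. FADS2 and FADS1 put further double bonds into polyunsaturated fatty acids. FADS2 was at -0.42, 2.14, 2.30 and 1.43 in p53+/+ and -0.29, -0.39, 0.90 and 0.50 in p53-/-. All its treated p53+/+ arrays lay above all p53-/- arrays, by 2.53, 1.40 and 0.93 at matched times, and p53-/- was past 2-fold above 0 h at 24 h. From the p53-/- 0 h array the p53+/+ changes were 2.43, 2.59 and 1.73. FADS1 was at 2.12, 3.51, 4.03 and 2.89 in p53+/+ and 1.97, 2.57, 2.86 and 2.56 in p53-/-, with the highest level of each genotype at 24 h. Its treated arrays did not overlap between genotypes, but only narrowly, with 2.89 in p53+/+ at 48 h against 2.86 in p53-/- at 24 h. They did overlap after quantile normalization, after median scaling and without scaling. The FADS1 difference of 0.33 at 48 h turned to -0.52 without scaling.

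ACACA, which makes malonyl-CoA, was at a log2 level of 2.15, 2.31, 2.47 and 3.19 in p53+/+ and 2.40, 2.08, 1.69 and 1.83 in p53-/-. On the probe used the genotypes moved apart with time, to differences of 0.23, 0.77 and 1.35, of which the first turned to -0.22 without scaling. A second, dimmer ACACA probe gave 0.46, 0.27 and 1.33. ACLY, which supplies cytosolic acetyl-CoA, was at -0.19, -0.62 and -0.98 relative to 0 h in p53+/+ and at 0.87, 0.48 and 0.27 in p53-/-. Against the p53-/- 0 h array the p53+/+ values were 0.44, 0.02 and -0.34. FASN, the fatty acid synthase, and ELOVL6, an elongase, stayed within 2-fold of 0 h on every array. LPIN1, a phosphatidate phosphatase, was at 0.20, 0.65, 1.06 and 1.15 in p53+/+ and 1.74, 0.83, 1.71 and 1.86 in p53-/-. Its genotypes were furthest apart before treatment, at a difference of -1.54, against -0.18, -0.66 and -0.71 after ADR. A second, dimmer LPIN1 probe, above background on 5 arrays, gave -0.63 before treatment and 0.60, -1.09 and -0.34 after ADR.

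**Figure D4:**
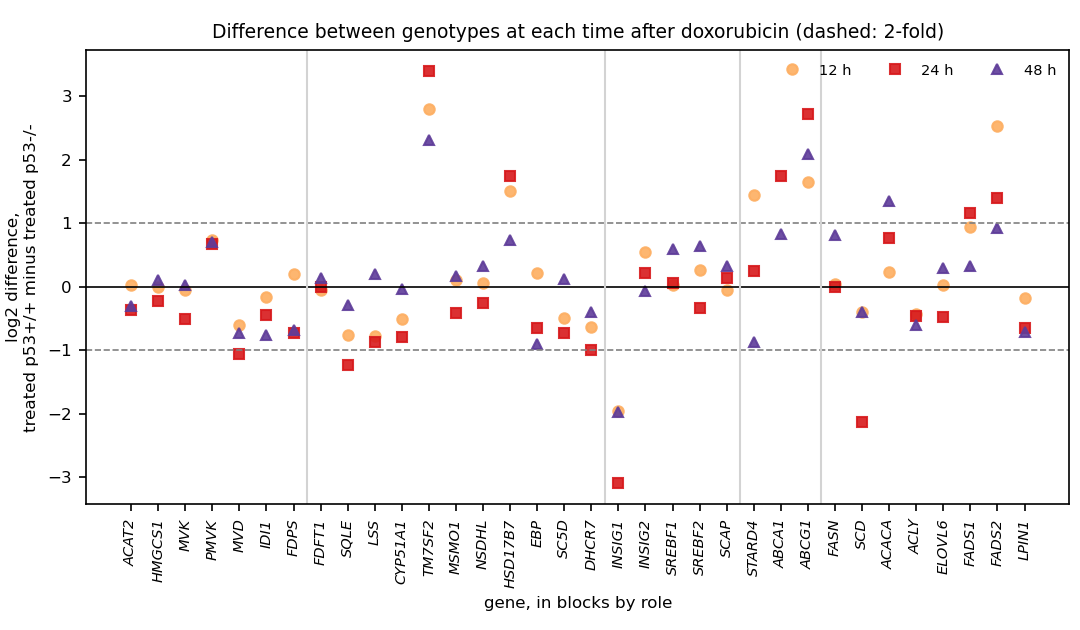
Log2 difference of each member (horizontal axis, in blocks by role) between treated p53+/+ and treated p53-/- arrays at 12, 24 and 48 h, 1 array per genotype and time, with dashed lines at 2-fold and ABCA1 at 12 h left out because neither array was well above background. TM7SF2 and ABCG1 are above 1 and INSIG1 is below -1 at all 3 times, and SCD leaves the dashed band at 24 h only.

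Counted over the list, 2 members, TM7SF2 and ABCG1, were at least 2-fold higher in p53+/+ than in p53-/- at all 3 treated times, against 6.68% of all genes. Without the 48 h arrays the count was 4, with HSD17B7 and FADS2, and no share of all genes was computed for it. At 24 h the 6 members TM7SF2, HSD17B7, ABCA1, ABCG1, FADS1 and FADS2 were 2-fold higher (13% of all genes). All treated p53+/+ arrays lay above all treated p53-/- arrays in 6 members, PMVK, TM7SF2, HSD17B7, ACACA, FADS1 and FADS2 (24.3% of all genes). That count was 5 after quantile normalization, 3 after median scaling and 1, TM7SF2, without scaling, with no share of all genes computed for these settings. Over all 34 members the median genotype difference was 0.03, -0.35 and 0.13 at 12, 24 and 48 h, and over all genes it was 0.08, -0.04 and 0.10. Before treatment 1 member, HMGCS1, was 2-fold higher in p53+/+ (4.12% of all genes) and 2, ABCG1 and LPIN1, were 2-fold lower (5.52% of all genes).

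Relative to 0 h, 7, 6 and 7 members were at least 2-fold higher at 12, 24 and 48 h in p53+/+, against 13.1%, 15.6% and 18.9% of all genes. The 48 h count was 5 from the p53-/- 0 h array (18.4% of all genes), without PMVK and ACACA, which stood at 0.87 and 0.79. The 4 that were so at all 3 times were TM7SF2, ABCA1, ABCG1 and FADS2 (9.51% of all genes), where ABCA1 is counted by its measured level although it was not well above background at 0 and 12 h. In p53-/- 5 members were 2-fold higher at 12 h, HMGCS1, IDI1, MSMO1, STARD4 and, with the same limit, ABCA1 (4.74% of all genes). At 48 h in p53-/- TM7SF2, STARD4 and, with the same limit at 0 h, ABCA1 were 2-fold higher (14.7% of all genes). HMGCS1, IDI1, MSMO1 and STARD4 had log2 levels of 0.74, 2.79, 0.10 and -0.62 on the p53-/- 12 h array. On the array labelled p53+/+ 0 h they had 0.86, 2.65, -0.11 and -0.94. STARD4 was at -0.18 on the p53-/- 48 h array. The 2-fold calls of these genes in p53-/- thus rest on the p53-/- 0 h array. ABCA1 was the 1 member higher at all 3 times in p53-/- (3.17% of all genes), again by its measured level only. Its bounds in p53-/- at 24 and 48 h, given above, stayed under 2-fold. Its second probe, above background on no array, changed by -1.89, -0.86 and -0.03 in p53-/-. In p53-/- 0 members were lower at all 3 times (2.1% of all genes). These shares lie on both sides of those of all genes.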

How the data were processed

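RNA of MCF10A cells labelled p53+/+ and p53-/- was measured at 0, 12, 24 and 48 h on 8 single-colour arrays on 1 slide, and groups came from the sample labels. The authors deposited scanner output of Agilent Feature Extraction 10.7.3.1, whose header names hg19. The processed signal in the deposited files, an intensity from which the scanner software had already removed background, was used, and no normalization between arrays is given in the sources used here. A table of the series held the same numbers (503808 of 503808 equal within a relative tolerance of 1e-05).

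Of 58717 spots per array that were not controls, 233 to 370 with an uneven or outlier mark were dropped, and 0 were saturated. Log2 signals minus the log2 75th percentile of each array (659 to 1193) were averaged over the spots of a probe. Probes were named by transcript accession through RefSeq (GRCh38.p14), which matched 27227 of 42391 probes (64.2%) to 20296 genes, and a gene took its probe with the highest mean. Between 49.8% and 62.9% of probes were well above background on an array. Where 1 side of a difference was not, a bound was computed against the lowest signal among probes well above background. With 1 array per condition no test was made, and precision is limited by how few arrays there are.

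The members and gene lists were chosen with earlier results of these data known. Members past 2-fold at all treated times in any comparison, the sensors and the exporters were given on every array. Some other members were also given on every array, and the rest by change, range or count. The wider lists were read by the same rule, with at most 4 genes of each. A check gene and a marker list that were also read are not reported here. Alternatives were quantile normalization, median and no scaling, normexp (limma 3.58.1, offset 50; the median signal of a spot was used for want of its mean), the mean of all probes, stricter and no filters, a signal floor, 1.5- and 3-fold rules, the p53-/- 0 h array as baseline and each treated time left out. The fold rule was also run on simulated arrays with changes set in advance and noise between spots only. That run cannot show how far separate cultures or arrays vary. Python 3.11.15, numpy 2.4.6, pandas 2.3.3, matplotlib 3.10.9 and R 4.3.3 were used.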

Additional observations from a re-analysis of the deposited data

Results flagged for a closer look

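In 6 members every treated p53+/+ array moved one way from the array labelled p53+/+ 0 h and every treated p53-/- array moved the other way from its own 0 h array, and the difference was not tested. The mean log2 change in p53+/+ minus that in p53-/- was 4.83 for ABCG1, 1.67 for HSD17B7, 1.03 for ACACA and 0.69 for INSIG2, and it was -1.33 for IDI1 and -1.14 for ACLY. Such opposite signs were found in 17.6% of the members and in 22.3% of the 15811 genes. Of the 6, 1 (HSD17B7) kept opposite signs from the p53-/- 0 h array, at 1.33, on the probe used. On its other probes HSD17B7 changed by 0.09 and 0.22 at 12 h in p53-/-, so the opposite signs were not seen there. A second ACACA probe changed by 0.003, -0.24 and 0.23 in p53-/-, so its signs were mixed. The array labelled p53+/+ 0 h did not show ABCG1 well above background, so its value is a measured difference and no exact size, and it was 2.16 from the p53-/- 0 h array. On its other probe INSIG2 changed by 0.18, 0.12 and -0.20 in p53+/+, so its sign turned at 48 h.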

How the results depend on the processing

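No paired analysis was possible because each genotype and time has 1 array, and so 1 replicate number, and a fit that takes times as replicates was not made. The median over the members of the mean treated genotype difference was -0.04, and it was -0.11 after quantile normalization, -0.17 after median scaling and -0.63 without scaling. The median change from 0 h in p53+/+ (-0.19) was -0.35 after median scaling, -0.61 without scaling, -0.27 with members above background on all arrays and 0.11 from the p53-/- 0 h array. That in p53-/- (0.02) was 0.42 without scaling. The 0 h difference (0.10) was 0.32 without scaling and 0.18 with members above background on all arrays. Leaving out 1 treated time gave -0.13 to 0.094, -0.44 to 0.045 and -0.084 to 0.10 for the first 3 medians. Without scaling the medians of all genes ran from -0.76 to 0.52, a shift to be set beside each unscaled value. Members lower in p53+/+ at all treated times (1) were 4 without scaling and 2 with a 1.5-fold rule, and those higher (2) were 1 with members above background on all arrays, 5 with the 1.5-fold rule, 6 with no overlap of any size, and 2 to 4 leaving out 1 time. Members at least 2-fold below 0 h in p53+/+ at all times (1) were 3 without scaling and 3 with the 1.5-fold rule, and those above (4) were 2 with members above background on all arrays and 4 to 6 leaving out 1 time. The 1 member above 0 h at all times in p53-/-, ABCA1, was 0 after quantile normalization, normexp, the mean of all probes, a signal floor, the 3-fold rule and the filter on all arrays, 3 without scaling, 4 with the 1.5-fold rule and 1 to 2 leaving out 1 time. The 10 members down at 24 h in p53+/+ were 6 with the 3-fold rule and 9, without LSS, with the mean of all probes. They were 12 after median scaling and 14 without scaling. Of single members, ABCA1 at 12 h in p53-/- turned to -0.21 with normexp, -0.40 with the mean of all probes and -0.29 with the floor, and ABCG1 at 12 h in p53+/+ to -0.40 from the p53-/- 0 h array. Of 21 calls between genotypes, 18 were kept without scaling and with normexp, 13 with the 3-fold rule, and all 21 with quantile normalization and median scaling. Of 34 calls from 0 h in p53+/+, 27 were kept from the p53-/- 0 h array and 24 with the 3-fold rule, and of 12 in p53-/-, 5 with normexp and 4 with the 3-fold rule. Where a cause is not part of the setting itself, the cause was not tested. Signal near background limits ABCA1, ABCG1 and SC5D.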

Other observations

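Other genes of the same pathways were read from lists chosen, like the members, with earlier results of these data known. The rule was the same, at least 2-fold at all 3 treated times. Of 12 other sterol and isoprenoid synthesis genes, 1 was lower and 1 higher in treated p53+/+ than in treated p53-/-. Over all genes 5.95% were lower and 6.68% higher by this rule, shares that the counts of these lists are to be read against. The lower one was LBR, a nuclear membrane protein that shares the sterol C14-reductase activity of TM7SF2, at a log2 difference of -1.41, -1.86 and -2.24 at 12, 24 and 48 h. Its log2 levels were 3.75, 2.52, 1.79 and 1.48 at 0, 12, 24 and 48 h in cells labelled p53+/+, whereas p53-/- cells gave 3.98, 3.92, 3.65 and 3.72. LBR thus lay lower in p53+/+ with each later time, while TM7SF2 lay higher at each treated time. The higher one was RABGGTA, a subunit of the enzyme that attaches isoprenoids to Rab proteins, at 1.59, 2.14 and 2.22. NUS1, a subunit of the dolichol-synthesising enzyme, was at -1.13, -1.29 and -1.11 relative to 0 h in p53+/+ but at -0.24, -0.39 and -0.21 from the p53-/- 0 h array, so its call rests on the array labelled p53+/+ 0 h. IDI2 also passed the rule there, as lower than 0 h, but was above background on 1 array only. From the p53-/- 0 h array it was at 0.33, 0.58 and 1.18, with its sign turned.

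Of 10 other genes of SREBP processing and sterol sensing, 1 passed the rule. TMEM97, a sterol-responsive membrane protein also known as the sigma-2 receptor, had log2 levels of 2.18, 0.78, 0.17 and -2.22 in cells labelled p53+/+ and 1.62, 2.68, 2.22 and 2.03 in p53-/- cells, a difference of -1.89, -2.06 and -4.25 after ADR. Of 17 genes of sterol transport, esterification and LXR signalling, 15 were above background on at least 1 array and 2 passed the rule between genotypes, both lower in p53+/+. They were MYLIP, a ubiquitin ligase and LXR target, at -1.36, -1.43 and -2.23, and CYP27A1, a sterol hydroxylase, which was above background on 6 arrays. ABCA7, a lipid transporter, was higher than 0 h in p53+/+ by 1.59, 3.01 and 2.68, and by 0.22, 1.41 and 1.39 in p53-/-.

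Of 21 other genes of fatty acid synthesis, 19 were above background on at least 1 array and 0 passed the rule between genotypes, while the elongases ELOVL4 and ELOVL7 were higher than 0 h in p53-/-, by 1.17 to 1.67 and by 2.08 to 2.31. From the same p53-/- 0 h array treated p53+/+ stood at 2.07, 2.10 and 1.21 for ELOVL4 and at 2.28, 1.83 and 1.90 for ELOVL7. Treated cells of both genotypes thus lay above that array. Of 18 genes of glycerolipid synthesis and fatty acid activation, GPAM, the first acyltransferase of glycerolipid synthesis, was lower in treated p53+/+ by a log2 difference of -2.13, -1.97 and -1.49. ACSL6, an acyl-CoA synthetase, was above background on 2 arrays, at log2 levels of -1.73 and -2.99 on p53+/+ at 24 and 48 h. ACSL4, another such synthetase, was at -1.32, -1.66 and -1.76 relative to 0 h in p53+/+ and at -0.95, -1.30 and -1.40 from the p53-/- 0 h array. LIPE, a lipase, was at -1.12, -1.56 and -1.14 relative to 0 h in p53-/-, and treated p53+/+ stood at -0.69, -1.17 and -1.03 from that array. Of 16 genes of fatty acid oxidation, CPT2, which completes the carnitine shuttle, was higher in treated p53+/+ by 1.69, 1.66 and 1.60. PPARGC1A, a coactivator of oxidative genes, was lower and was above background on 4 arrays. PDK4, which restrains pyruvate dehydrogenase, was at -3.38, -2.65 and -3.09 relative to 0 h in p53-/-. From the same p53-/- 0 h array treated p53+/+ stood at -3.78, -4.22 and -5.08. No test was made for any of these genes.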
